A study of Mus musculus with 16 samples.

Results

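Circadian clock repressors and output genes were followed in 3T3-L1 cells, a mouse embryonic fibroblast line kept as preadipocytes, which can be induced to become adipocytes. The 10 genes are the Period genes Per1, Per2 and Per3, the cryptochrome genes Cry1 and Cry2, the REV-ERB genes Nr1d1 and Nr1d2, and Dbp, Bhlhe40 and Nfil3. They were chosen by symbol, as all probes that the array's annotation pairs with exactly one of these names, which gave 14 of 38467 probes and 10 of the 19640 genes named. Per2, Per3, Nr1d1 and Nr1d2 have 2 probes each and the others 1. Treatment was with the synthetic glucocorticoid dexamethasone (dex) for 2 h or 36 h, or with DMSO, the vehicle, for as long. Each of the 4 groups has 4 biological replicates, and each of the 16 arrays set a sample (Cy5) against a pooled reference (Cy3). No label names a dose, an hour of harvest or a step that sets the cells' clocks in phase, so hours of treatment and clock phase cannot be told apart in any comparison between 2 and 36 h.

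In the mammalian clock, CLOCK and BMAL1 (encoded by Arntl) bind E-boxes and switch on the Period and cryptochrome genes, whose proteins return to repress them. A second loop runs through the REV-ERB proteins, repressors that compete with ROR activators at response elements of Arntl and Nfil3. Outputs run through D-boxes, which the activator DBP and the repressor NFIL3 share, and through BHLHE40 (DEC1), which represses at E-boxes. Glucocorticoids are a systemic time signal for clocks in peripheral tissues, adipose tissue included, and Per1 and Per2 are known direct targets of the glucocorticoid receptor.

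Promoter windows of 300 bases, from 250 before to 50 after the annotated start, were held by RefSeq's table (build GRCm38.p6) for 8 of the 10 genes, in 9 windows. The 3 printed here belong to genes that changed with dex and hold a binding motif of a clock factor, in capitals, read 5′ to 3′ on the gene's strand. Per1 (chr11:69098699-69098998, plus strand) has 1 E-box, CACGTG, at -166 to -161 from the start; Per3 (chr4:151044616-151044915, minus strand) has 2 D-boxes, TTATGTAA, at -205 to -198 and -158 to -151; and Nfil3 (chr13:52980990-52981289, minus strand) has 1 ROR or REV-ERB element core, TAGGTCA on the opposite strand, at -12 to -6.
Per1: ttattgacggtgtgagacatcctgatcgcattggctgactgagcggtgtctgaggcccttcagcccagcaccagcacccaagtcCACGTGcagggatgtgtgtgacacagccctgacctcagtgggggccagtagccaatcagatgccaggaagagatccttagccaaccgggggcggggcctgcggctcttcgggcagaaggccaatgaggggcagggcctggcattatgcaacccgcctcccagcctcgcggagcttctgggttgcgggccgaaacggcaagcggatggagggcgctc
Per3: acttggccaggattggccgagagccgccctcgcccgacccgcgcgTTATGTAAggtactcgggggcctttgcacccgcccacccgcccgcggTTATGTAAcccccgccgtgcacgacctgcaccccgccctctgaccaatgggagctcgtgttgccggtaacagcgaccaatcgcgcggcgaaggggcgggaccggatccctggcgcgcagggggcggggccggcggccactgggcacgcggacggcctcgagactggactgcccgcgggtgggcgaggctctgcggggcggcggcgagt
Nfil3: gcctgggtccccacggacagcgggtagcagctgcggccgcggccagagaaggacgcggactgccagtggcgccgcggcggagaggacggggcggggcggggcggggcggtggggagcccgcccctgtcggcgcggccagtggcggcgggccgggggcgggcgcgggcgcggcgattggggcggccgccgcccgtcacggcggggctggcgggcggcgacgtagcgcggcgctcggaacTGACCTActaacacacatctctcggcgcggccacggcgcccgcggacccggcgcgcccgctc

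Both strands were searched, and a D-box was counted as TTATGTAA or TTACGTAA. Of all 32851 windows of this length in the table, 7.15% held the E-box, 1.06% a D-box and 2.61% the ROR or REV-ERB core. Per2 and Bhlhe40 had no window, so none of these motifs was sought in them. Among the 8 genes with a window, the E-box was found in Per1 and Cry1, the D-box in Per3 and the ROR or REV-ERB core in Nfil3. The variant E-box CACGTT was found in Cry1, Cry2 and Nr1d1 (4.68% of all windows). The cAMP response element TGACGTCA was found in none of the 8 (1.79% of all windows), nor were the glucocorticoid receptor half-sites AGAACA and TGTTCT spaced by 3 bases (0.00913%) or TGTTCT alone (19.0%). A match is a run of letters, not a shown binding site, and sequence outside these windows was not searched.

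All values are log2 ratios of sample over pool, so 0 means the pool's level, a difference of 1 is 2-fold, and no level can be compared between genes. Array medians lay between -0.011 and 0.0083. Between-replicate noise over all probes was larger at 2 h (residual SD 0.168 to 0.435 per array) than at 36 h (0.108 to 0.205), and replicate 4 of DMSO at 2 h correlated with its own group at -0.10 on average. Fkbp5 and Tsc22d3, established targets of the glucocorticoid receptor, were 5.15-fold and 6.77-fold higher with dex at 2 h and 8.62-fold and 5.38-fold higher at 36 h, on their quoted probes. Other probes of Tsc22d3 gave less, 2.17-fold and 1.82-fold higher and a log2 change of -0.07 (limma adjusted p = 0.883) at 2 h. At 36 h they were 2.02-fold, 1.96-fold and 1.36-fold higher. A ratio to a pool holds no absolute level, so the cell type could not be checked by markers. In bulk RNA, a smaller share of cells making a transcript and less of it per cell cannot be told apart.

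At 2 h, 3 of the 10 genes rose with dex, Per1, Nfil3 and Per2, and 1 fell, Bhlhe40. Over all genes 1.97% rose and 1.21% fell at that time (limma, adjusted p under 0.05 on at least 1 probe). The changes were 2.08-fold for Per1, 1.88-fold for Nfil3, 1.73-fold for Per2 and 2.15-fold down for Bhlhe40. The remaining 6 genes, Per3, Cry1, Cry2, Nr1d1, Nr1d2 and Dbp, did not pass. The same 4 genes passed whichever of the 16 arrays was left out, DMSO 2 h replicate 4 included. On the 2-hour arrays alone, without the quieter 36-hour ones, Per2 (adjusted p = 0.115) and Nfil3 (adjusted p = 0.0695) no longer passed in limma. That fit called 1.5% of all genes instead of 3.18%.

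At 36 h, 1 gene was higher with dex, Per2, and 2 were lower, Per3 and the output activator Dbp. Over all genes 6.88% rose and 4.96% fell. Per2 was 1.68-fold higher, whereas Per3 was 1.33-fold and Dbp 1.29-fold lower. Only Per2 passed at both times among the 10 genes. The median over the 10 genes was -0.05 at 2 h and -0.04 at 36 h, against -0.012 and -0.0012 over all genes. In 6 of the 14 probes the 4 dex arrays did not overlap the 4 DMSO arrays at 2 h (5.86% of all probes), 5 of them higher and 1 lower. At 36 h this held for 7 probes, 3 higher and 4 lower (26.8% of all probes).

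**Figure D1:**
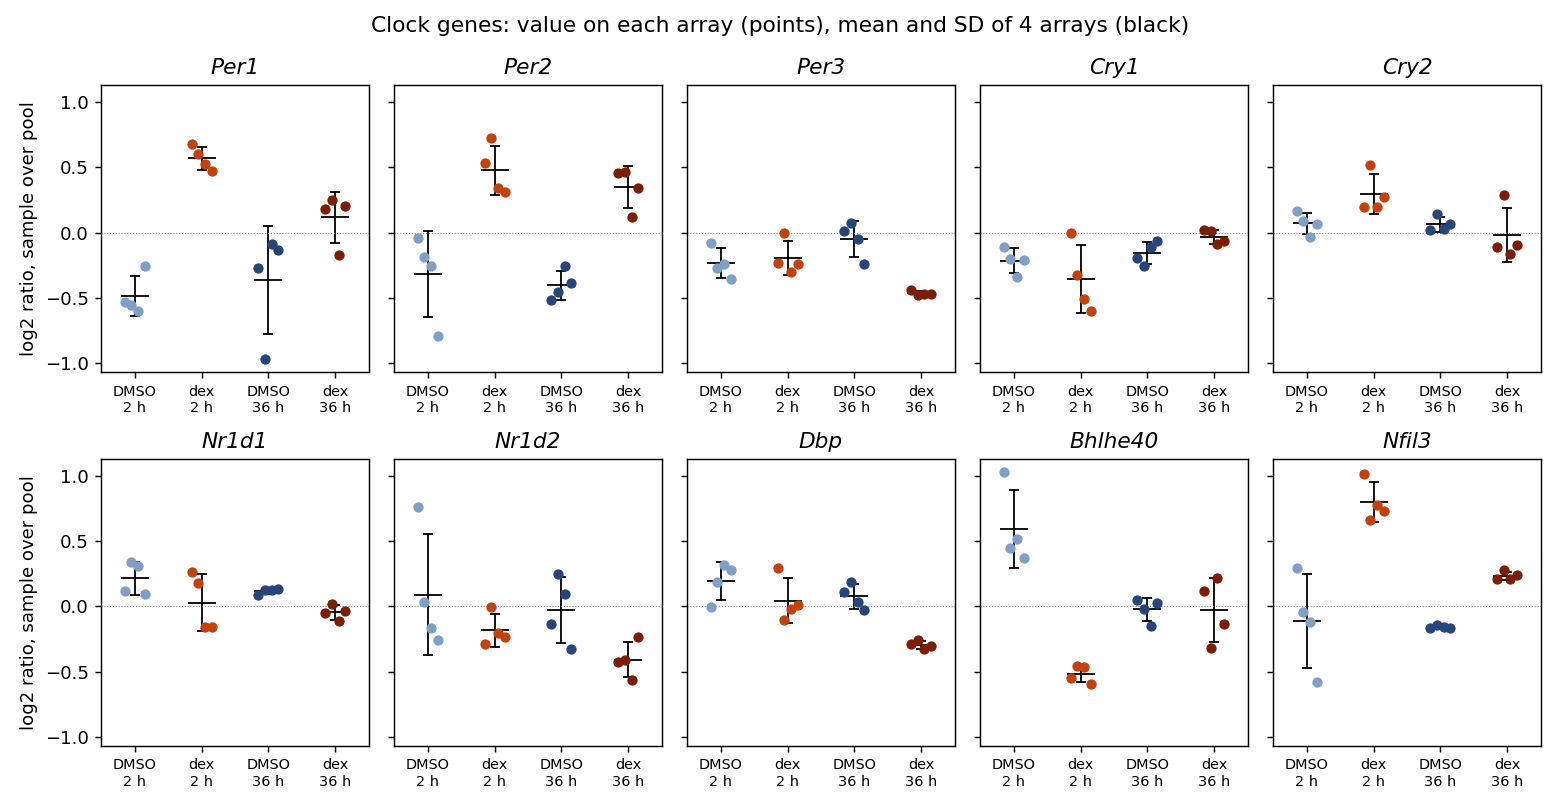
Log2 ratio of sample over pool (vertical axis) for the 10 genes, 1 probe each, on every array of the 4 groups (points), with the mean and SD of 4 arrays in black. Per1, Per2 and Nfil3 stand higher and Bhlhe40 lower in dex at 2 h, while Per3 and Dbp stand lower in dex at 36 h.

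Per1 encodes the Period protein known for a rapid response to glucocorticoids. In dex replicates 1 to 4 at 2 h it read 0.68, 0.61, 0.53 and 0.47, and in DMSO -0.53, -0.55, -0.60 and -0.26. The lowest dex array thus stood above the highest DMSO array, and the log2 change was 1.06 ± 0.16 (SE, n = 4 per group, limma adjusted p = 0.00128). At 36 h the dex arrays read 0.18, 0.25, -0.17 and 0.21 and the DMSO arrays -0.27, -0.97, -0.08 and -0.13. These groups overlapped, through dex replicate 3, and DMSO replicate 2 lay far below the others. The difference at 36 h was 0.48 ± 0.16 and did not pass (limma adjusted p = 0.0856). It passed in 2 of 23 alternatives, with arrays weighted by their noise (adjusted p = 0.0271) and after quantile normalization (adjusted p = 0.0382), and in 0 of the 16 fits without 1 array. Those 2 alternatives called 46.3% and 22.1% of all genes, instead of 11.7%. Without DMSO 36 h replicate 2 the difference was 0.28 (adjusted p = 0.231).

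Per2, the other Period gene induced at 2 h, was measured by 2 probes that passed at both times. On probe mMC007980 the 2-hour dex arrays read 0.53, 0.72, 0.34 and 0.31 and the DMSO arrays -0.04, -0.18, -0.25 and -0.79. At 36 h they read 0.46, 0.47, 0.12 and 0.34 with dex and -0.52, -0.46, -0.26 and -0.38 with DMSO. Dex and DMSO did not overlap at either time, and DMSO 2 h replicate 4 was the lowest of the 16. The log2 change was 0.79 ± 0.15 at 2 h (limma adjusted p = 0.0052) and 0.75 ± 0.15 at 36 h (adjusted p = 0.00377). The difference between these effects was -0.04, with a 95% interval from -0.48 to 0.39, and did not pass (adjusted p = 0.949).

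Probe mMA035000 of Per2 gave smaller changes, 0.55 ± 0.12 at 2 h (adjusted p = 0.0236) and 0.45 ± 0.12 at 36 h (adjusted p = 0.0353), again with separated groups. Dex replicate 2 at 2 h was its highest array, at 0.79 against 0.26 to 0.33 on the other 3. Without that array the 2-hour change was 0.43 (adjusted p = 0.0561), and without DMSO 2 h replicate 3 it was 0.52 (adjusted p = 0.0754). At 36 h its call ended without replicate 1 (adjusted p = 0.108), 2 (0.126) or 3 (0.0596) of DMSO and without replicate 1 (0.0846), 2 (0.0516) or 3 (0.125) of dex, all at 36 h. Probe mMC007980 passed whichever array was left out.

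Per3 is the Period gene that the core oscillator can spare. Its probe mMC000930 read -0.23, -0.00071, -0.30 and -0.24 with dex and -0.08, -0.27, -0.24 and -0.35 with DMSO at 2 h, overlapping throughout (0.04 ± 0.09, limma adjusted p = 0.918). At 36 h dex read -0.44, -0.48, -0.47 and -0.47 and DMSO 0.01, 0.07, -0.05 and -0.24. The dex arrays lay close together (SD 0.018) and below every DMSO array, and the change was -0.41 ± 0.09 (adjusted p = 0.00887). The second probe, mMC016897, read 2.16 in dex 2 h replicate 2 and -1.90 in DMSO 36 h replicate 1, and between -0.40 and 0.24 on the other 14 arrays. Its change at 36 h was 0.27 ± 0.49 (adjusted p = 0.886). Over the alternatives this ranged from -0.24 to 0.46, with the other sign in 1 and a pass in 0. Apart from replicate 1, its DMSO arrays at 36 h read 0.20, 0.09 and 0.20. Its dex arrays there read -0.18, -0.02, -0.11 and -0.01, below those DMSO values. With both probes averaged, Per3 was at -0.07 at 36 h and did not pass (adjusted p = 0.966). That mean includes the array at -1.90. The call of a fall thus rests on 1 probe. The annotation ties that probe to cDNA clones of Per3 and the other also to its RefSeq transcript. The D-boxes printed above lie in the Per3 window.

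**Figure D2:**
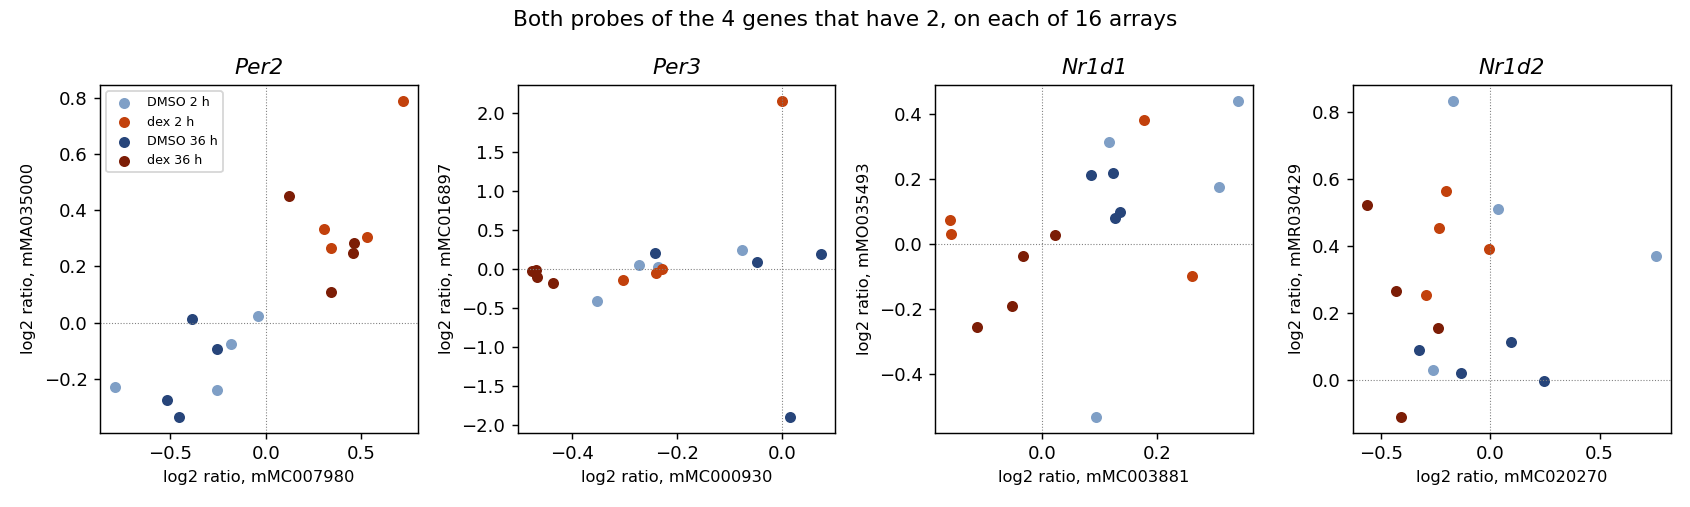
Log2 ratios of the 2 probes of Per2, Per3, Nr1d1 and Nr1d2 plotted against each other, 1 point per array, coloured by group. The Per2 probes separate dex from DMSO on both axes, while Per3 probe mMC016897 has arrays at 2.16 and -1.90 that mMC000930 does not share.

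Cry1 and Cry2, the partners of the Period proteins in repressing CLOCK and BMAL1, did not pass at either time. Cry1 at 2 h was -0.36 ± 0.26 with dex and -0.21 ± 0.09 with DMSO (mean ± SD, n = 4), a difference of -0.14 with a 95% interval from -0.37 to 0.09. At 36 h it was -0.03 ± 0.05 and -0.16 ± 0.09, a difference of 0.12 with an interval from -0.11 to 0.36. Cry2 at 2 h read 0.20, 0.52, 0.20 and 0.27 with dex and 0.16, 0.09, -0.03 and 0.07 with DMSO. These groups nearly touched without overlap, and the difference of 0.22 ± 0.10 did not pass (limma adjusted p = 0.454). At 36 h Cry2 differed by -0.08, with an interval from -0.30 to 0.14.

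Nr1d1 and Nr1d2 encode REV-ERBα and REV-ERBβ, haem-binding repressors with a known part in adipocyte differentiation, and neither passed. Nr1d1 probe mMC003881 read 0.09, 0.12, 0.13 and 0.14 with DMSO at 36 h and -0.05, 0.02, -0.11 and -0.03 with dex. All dex arrays lay below all DMSO arrays, by a mean difference of -0.16 ± 0.10 that did not pass (limma adjusted p = 0.399). Probe mMO035493 had separated groups at 36 h too, with a difference of -0.27 ± 0.17 (adjusted p = 0.411). In a fit of the 36-hour arrays alone, where the variance is smaller, both probes passed as lower (adjusted p = 0.0454 and 0.0379). That fit called 23.2% of all genes instead of 11.7%. At 2 h the Nr1d1 probes gave -0.19 and -0.0027 with overlapping groups. The 2 probes of Nr1d2 differed in sign at 36 h, with -0.38 ± 0.18 on mMC020270 (adjusted p = 0.251) and 0.15 ± 0.15 on mMR030429 (adjusted p = 0.675). At 2 h they gave -0.27 and -0.02, and all of these groups overlapped.

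Dbp encodes an activator of D-box genes and is among the clock's most rhythmic outputs. At 2 h its arrays overlapped, from -0.10 to 0.29 with dex and from -0.01 to 0.32 with DMSO, and the difference of -0.15 ± 0.10 did not pass (limma adjusted p = 0.615). At 36 h dex read -0.29, -0.26, -0.33 and -0.30 and DMSO 0.11, 0.19, 0.04 and -0.03. The groups were apart and the dex arrays close together (SD 0.029), for a change of -0.37 ± 0.10 (adjusted p = 0.0243). This call ended without DMSO 36 h replicate 1 (adjusted p = 0.0738) or 2 (0.0914) and without dex 36 h replicate 1 (0.067) or 3 (0.069). The change itself stayed between -0.43 and -0.33 over the alternatives.

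Nfil3 encodes the repressor that competes with DBP at D-boxes. At 2 h it read 1.02, 0.66, 0.78 and 0.73 with dex and 0.29, -0.04, -0.12 and -0.58 with DMSO, whose replicates spread widely (SD 0.360). The groups did not overlap, and the change was 0.91 ± 0.14 (limma adjusted p = 8.95e-04). At 36 h dex read 0.21, 0.28, 0.21 and 0.24 and DMSO -0.16, -0.14, -0.15 and -0.17. Here the groups were tight (SD 0.032 and 0.012) and well apart, by 0.39 ± 0.14. That SE pools the noisier 2-hour arrays, and the difference did not pass (adjusted p = 0.0931). It passed in a fit of the 36-hour arrays alone (adjusted p = 6.65e-04), after quantile normalization (0.0102), with array weights (6.38e-05), and without DMSO 2 h replicate 1 (0.0312) or 4 (0.0137). In that order these fits called 23.2%, 22.1%, 46.3%, 14.4% and 15.7% of all genes, instead of 11.7%.

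Bhlhe40 encodes an E-box repressor that stimuli other than the clock can also induce. At 2 h it read -0.55, -0.45, -0.46 and -0.59 with dex and 1.03, 0.45, 0.52 and 0.37 with DMSO. Every dex array lay well below every DMSO array, and the change was -1.11 ± 0.14 (limma adjusted p = 1.61e-04). At 36 h dex read 0.12, -0.31, 0.22 and -0.13 and DMSO 0.05, -0.02, -0.15 and 0.03. These groups overlapped, with a difference of -0.0044 and a 95% interval from -0.30 to 0.29 (adjusted p = 0.998).

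**Figure D3:**
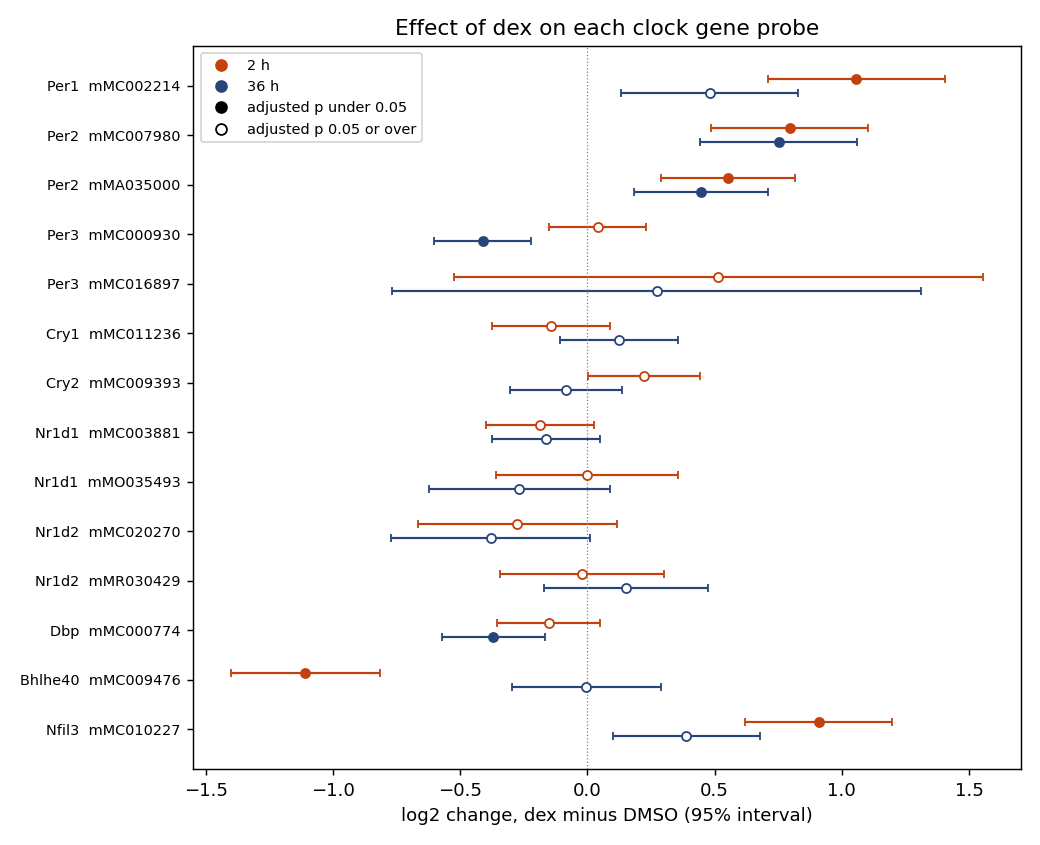
Log2 change, dex minus DMSO, with its 95% interval (horizontal axis) for each of the 14 probes at 2 h and at 36 h. Filled points passed at an adjusted p under 0.05. Bhlhe40 lies at -1.11 at 2 h and at -0.0044 at 36 h, and both Per2 probes are filled at both times.

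The third comparison asked whether the effect of dex differed between the times. Bhlhe40 passed, with an effect at 36 h that was 1.10 ± 0.19 higher than that at 2 h (limma adjusted p = 0.00533, and at most 0.0169 over the alternatives). It was the only 1 of the 10 genes, with 0 passing in the other direction, against 2.12% and 1.36% of all genes. Per1 (-0.58 ± 0.23, adjusted p = 0.27), Nfil3 (-0.52 ± 0.19, adjusted p = 0.221) and Per3 (-0.45 ± 0.13, adjusted p = 0.0861) had values below 0 that did not pass. Each passed in 1 of the 16 fits without 1 array, Per1 without DMSO 36 h replicate 2 (adjusted p = 0.0215) and Nfil3 and Per3 without DMSO 2 h replicate 1 (0.0383 for both). Dbp, which passed at 36 h alone, had a difference of -0.22 ± 0.13 that did not pass either (adjusted p = 0.515). An effect that passed at 1 time alone is thus not shown to differ between times for Per1, Nfil3, Per3 or Dbp.

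The 4 group means of Bhlhe40, in descending order, were 0.59 ± 0.30 in DMSO at 2 h, -0.02 ± 0.09 in DMSO at 36 h, -0.03 ± 0.24 in dex at 36 h and -0.51 ± 0.07 in dex at 2 h (SD, n = 4). The middle pair overlapped, and the outer groups overlapped neither of them. So the 2-hour difference was between a vehicle level above and a dex level below both 36-hour levels. These comparisons share arrays and are not independent. From 2 to 36 h the vehicle value fell by 0.62 and narrowly missed the threshold (-0.62 ± 0.14, limma adjusted p = 0.0509), and the dex value was 0.49 ± 0.14 higher (adjusted p = 0.0984).

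For Per1 the order was dex 2 h (0.57 ± 0.09), dex 36 h (0.12 ± 0.19), DMSO 36 h (-0.36 ± 0.41) and DMSO 2 h (-0.49 ± 0.15), and only the last 3 overlapped their neighbours. Nfil3 had dex 2 h (0.80 ± 0.15) above dex 36 h (0.23 ± 0.03), and the DMSO groups had lower means (-0.11 ± 0.36 at 2 h and -0.16 ± 0.01 at 36 h). The wide DMSO group at 2 h overlapped both 36-hour groups, that with dex through its replicate 1. Per2 formed a dex pair (0.48 ± 0.19 and 0.35 ± 0.16) and a DMSO pair (-0.32 ± 0.33 and -0.40 ± 0.11), each overlapping within itself. In both Dbp and Per3 probe mMC000930 the dex group at 36 h was lowest (-0.29 ± 0.03 and -0.46 ± 0.02). It lay below the other 3 groups without overlap, while the order of those 3 differed between the genes. On Per3 probe mMC016897 the lowest mean was that of DMSO at 36 h (-0.35 ± 1.03), and dex at 36 h was at -0.08 ± 0.08. The share of all probes with groups ordered or separated in these ways was not computed.

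In vehicle alone, from 2 to 36 h, 0 of the 10 genes passed in limma, against 0.27% of all genes upward and 0.993% downward. At an unadjusted p under 0.05 there were 2, Bhlhe40 and Nr1d2, both lower at 36 h, where 16% of all genes had such a p. For Nr1d2 this held on probe mMR030429 alone (-0.38 ± 0.15), and mMC020270 gave -0.12 ± 0.18 (adjusted p = 0.869). With array weights both genes passed, Nr1d2 again on mMR030429 alone, where 2.55% of all genes passed instead of 1.26%. In dex, Nfil3 was lower at 36 h than at 2 h (-0.56 ± 0.14, adjusted p = 0.0488), the 1 of 10 genes to pass (1.41% of all genes downward, 0 and 1.04% upward). This call was marginal, since it ended in 14 of the 16 fits without 1 array (adjusted p up to 0.148). The dex arrays at 36 h did lie below all those at 2 h for Nfil3, as they did for Per1 (-0.45 ± 0.16, adjusted p = 0.216), Dbp (-0.34 ± 0.10, adjusted p = 0.0977) and Per3 probe mMC000930 (-0.27 ± 0.09, adjusted p = 0.174). For Bhlhe40 they lay above all those at 2 h (0.49 ± 0.14, adjusted p = 0.0984). The share of all probes separated in this way between the times was not computed.

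The other genes of the clock were taken from a list of 30, of which 27 were measured. At 2 h 2 of them rose, Nampt and Usp2, and 1 fell, Noct, beside 1.97% and 1.21% of all genes. At 36 h 4 rose, Nampt, Usp2, Rora and Bhlhe41, and 2 fell, Ppargc1a and Tipin, beside 6.88% and 4.96% of all genes. The list's median change was 0.01 at 2 h and -0.0056 at 36 h, against -0.012 and -0.0012 over all genes. The core activator gene Clock gave 0.05 ± 0.07 and 0.04 ± 0.07 on its quoted probe, and its partner Arntl, a target of REV-ERB repression, gave -0.65 ± 0.18 at 2 h (limma adjusted p = 0.102) and 0.20 ± 0.18 at 36 h (adjusted p = 0.649).

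Nampt, the rate-limiting enzyme of NAD salvage and a clock output, rose by 1.01 ± 0.13 at 2 h (limma adjusted p = 2.14e-04) and by 2.40 ± 0.13 at 36 h (adjusted p = 9.87e-09), on both probes. On probe mMA032048 its effect was 1.39 ± 0.18 larger at 36 h (adjusted p = 4.13e-04), and the vehicle value itself was lower at 36 h than at 2 h (-0.88 ± 0.13, adjusted p = 0.00266). Probe mMC010522 gave a difference between the effects of 0.99 ± 0.27 that did not pass (adjusted p = 0.0711). Usp2, a rhythmic deubiquitinase gene, rose by 0.71 ± 0.16 (adjusted p = 0.0232) and 0.83 ± 0.16 (adjusted p = 0.00351) on 1 of 4 probes. Noct, encoding the rhythmic phosphatase nocturnin, fell by 0.61 ± 0.10 at 2 h on its quoted probe (-0.61, adjusted p = 0.00232) and was at -0.0056 at 36 h. Like Bhlhe40 it was lower at 2 h and near DMSO at 36 h, with a difference between times of 0.60 ± 0.14 (adjusted p = 0.0349) that no longer passed in 9 of the 16 fits without 1 array (adjusted p up to 0.0867). Of the other probes of Noct, mMC020519 fell at 2 h (-0.54 ± 0.11, adjusted p = 0.0125) and mMR030169 did not (-0.04 ± 0.13, adjusted p = 0.953). In the same order their differences between times were 0.56 (adjusted p = 0.0867) and -0.17 (adjusted p = 0.729). The mean of the Noct probes gave a difference of 0.33 (adjusted p = 0.265). The 2-hour call of Usp2 ended in 4 of the 16 fits without 1 array (adjusted p up to 0.0831). On the 2-hour arrays alone neither Noct (adjusted p = 0.0984) nor Usp2 (adjusted p = 0.167) passed.

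Rora, whose product activates at the elements that REV-ERB occupies, rose at 36 h by 0.42 ± 0.10 (limma adjusted p = 0.0177) on its quoted probe and by 0.50 on another, while its last probe gave 0.24 (adjusted p = 0.612). Bhlhe41 (DEC2), the paralogue of Bhlhe40, rose at 36 h by 0.50 ± 0.09 (adjusted p = 0.00318) and gave 0.08 ± 0.09 at 2 h. Ppargc1a, a coactivator of nuclear receptors, fell at 36 h (-0.55 ± 0.15, adjusted p = 0.0353), as did Tipin, whose product binds TIMELESS (-0.50 ± 0.13, adjusted p = 0.0296), each on 1 of 2 probes. The other probe gave -0.30 for Ppargc1a (adjusted p = 0.251) and -0.11 for Tipin (adjusted p = 0.577). The mean of a gene's probes did not pass for Rora (0.39, adjusted p = 0.0515), Ppargc1a (-0.43, adjusted p = 0.069) or Tipin (-0.31, adjusted p = 0.0591). The calls of Rora, Ppargc1a and Tipin were marginal. Without 1 array, Rora no longer passed on its quoted probe in 4 of the 16 fits, and Ppargc1a and Tipin in 7 each, all of them fits without a 36-hour array (adjusted p up to 0.0741, 0.107 and 0.0847). Without DMSO 36 h replicate 2, 3 genes of the list were left.

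**Figure D4:**
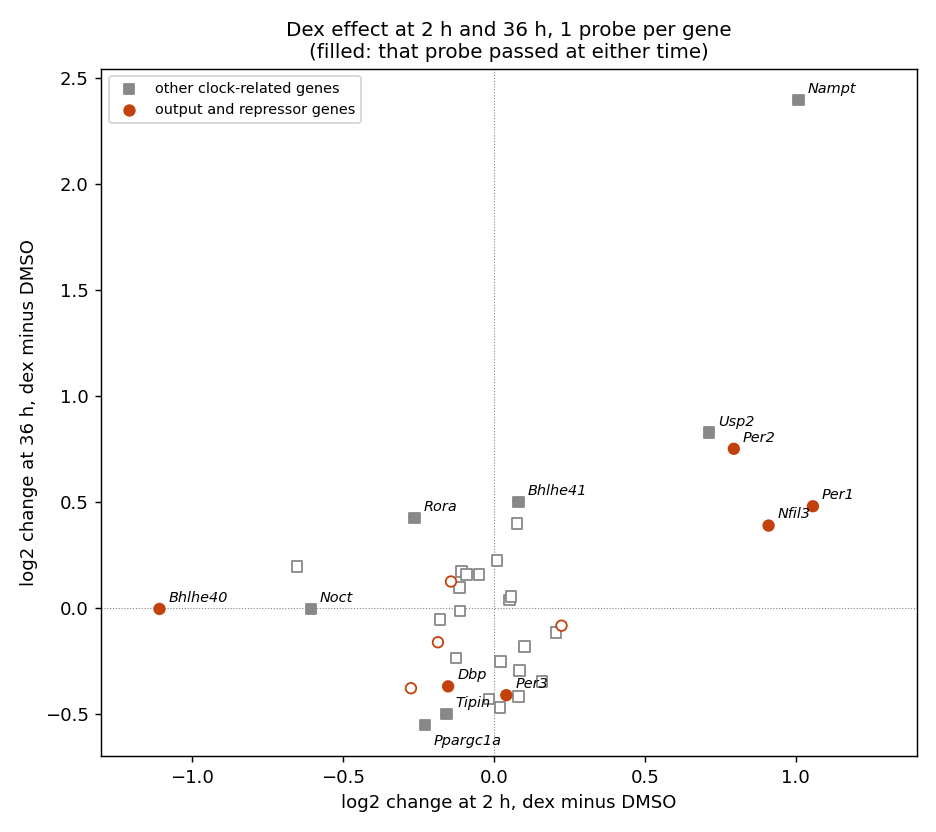
Log2 change with dex at 2 h (horizontal) and at 36 h (vertical), 1 probe per gene, for the 10 repressor and output genes (circles) and 27 other clock genes (squares). Filled symbols mark probes that passed at either time. Per1, Per2 and Nfil3 lie to the upper right with Nampt and Usp2, and Bhlhe40 and Noct lie to the left at a 36-hour change near 0.

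The genes most like a member over the 16 arrays were sought for the 3 members with the smallest p in limma's F test of both dex effects, which were Bhlhe40, Per2 and Nfil3. For Bhlhe40 they were Bmp2k (Pearson r = 0.96), Micall2 (0.95) and the Krüppel-like factor gene Klf10 (0.93), with changes of -0.62, -0.995 and -0.90 at 2 h and 0.09, -0.07 and -0.0097 at 36 h. For Per2 they were Zhx3 (0.97), Scaf8 (0.95) and Gdap10 (0.95), higher at both times, by 0.66, 0.39 and 0.85 at 2 h and 0.71, 0.31 and 0.87 at 36 h. For Nfil3 they were Slc25a29 (0.95), Rnf19b (0.95) and Endog (0.95), with 0.94, 0.78 and 0.62 at 2 h and 0.34, 0.24 and 0.19 at 36 h. These genes were picked for likeness on the same arrays, so the correlations are a description, with no test.

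Markers of cell state moved with dex beside these genes. Of 8 preadipocyte or fibroblast markers 4 fell at 36 h (4.96% of all genes), among them Dlk1 (-0.86 ± 0.17, limma adjusted p = 0.00423), and 1 at 2 h (1.21% of all genes), Pdgfrb. Of 7 measured adipocyte markers 1 rose at each time (1.97% of all genes at 2 h and 6.88% at 36 h), Fabp4 (2.59 ± 0.31 at 36 h, adjusted p = 5.87e-05). Of 6 macrophage and 6 endothelial markers 0 passed at either time. Their part in the clock gene changes was not tested.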

How the data were processed

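RNA of 16 samples in 4 groups was measured on 2-colour arrays. The deposited values are log2 ratios of sample (Cy5) over pool (Cy3), with limma named in the submitters' processing notes; the log base was taken as 2, because limma's ratios have it, and with natural logs every stated change would be larger by 1 constant factor. Background correction, normalization within arrays and the build of the probes are not given in sources used here. No further normalization was applied, and 131 missing values, none in these genes, were left missing. Symbols outside the 10 genes were updated by Entrez identifier from a RefSeq table (GRCm38.p6), which held 28735 of 29456 single-gene probes.

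The 4 group means were fitted to all 16 arrays at once with limma 3.58.1 (R 4.3.3; lmFit, eBayes, 12 residual degrees of freedom), so each SE pools the spread of both times. P values were adjusted over all 38467 probes of a contrast (Benjamini-Hochberg), and a gene passed where 1 probe had an adjusted p under 0.05. The quoted probe of a gene has the smallest p in the F test of both dex effects; every probe of the 10 genes is given, and of the other clock genes those that passed at 2 or 36 h are named, with Clock and Arntl added after their values were seen. Fits were tested on simulated data. Alternatives were the replicate block, array weights, robust eBayes with trend, fewer arrays, centring, quantile normalization, other call rules, averaged probes and leaving out each array. The genes and lists were chosen with earlier results of these data known. Nothing in the labels links replicates to cultures or days beyond calling them biological.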

Additional observations from a re-analysis of the deposited data

Results flagged for a closer look

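Of 56 groups of 4 arrays, over 14 probes, 5 had an array far from the other 3, where chance gives about 1 in 20. They were Per1 in dex 36 h replicate 3 (-0.17), Per2 probe mMA035000 in dex 2 h replicate 2 (0.79), Per3 probe mMC016897 in dex 2 h replicate 2 (2.16) and in DMSO 36 h replicate 1 (-1.90), and Cry2 in dex 36 h replicate 2 (0.29). The effect of dex differed between 2 and 36 h by limma's test of the difference for Bhlhe40 (1.10), Nampt (1.39), Noct (0.60), Rora (0.69) and the receptor target Fkbp5 (0.74). For each of these 5 genes the dex effect at 36 h was the higher on the quoted probe. For Fkbp5 the vehicle value itself was lower at 36 h than at 2 h (-0.59 ± 0.12, limma adjusted p = 0.035). Its dex value changed by 0.15 ± 0.12 between the times and did not pass (adjusted p = 0.642). The other probes of Rora gave differences of 0.44 (limma adjusted p = 0.248) and -0.02 (adjusted p = 0.982). The mean of the Rora probes gave 0.37 (adjusted p = 0.326). Fkbp5 and Noct kept this call in 7 of the 16 fits without 1 array each.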

How the results depend on the processing

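Among 97 single-probe results, 28 passed, and of those 0 changed sign in any alternative while 13 passed in every one. Of 2188 alternative values in all, 62 had another sign than the main value, all for results among the 69 that did not pass. The count of 4 genes at 2 h became 2 on the 2-hour arrays alone (wider list 1 instead of 3), where 1.5% of all genes passed instead of 3.18%. At 36 h the 3 genes became 7 with array weights, 5 on the 36-hour arrays alone, 5 after quantile normalization and 1 by log-odds above 0 or with a minimum change of 0.5. Over all genes these alternatives called 46.3%, 23.2%, 22.1%, 5.23% and 6.17%, instead of 11.7%. The wider list at 36 h went from 6 to 19, 12 and 14 in the first 3 of these and to 3 by log-odds. The differing effect between times (1 gene) was called for 2 with weights (9.4% of all genes instead of 3.48%). In vehicle over time 0 genes became 2 with weights (2.55% of all genes instead of 1.26%). They became 1 with centring (1.28%), log-odds (1.36%) or averaged probes (1.12%). In dex over time 1 became 5 with weights (20.2% of all genes instead of 2.43%). It became 0 with log-odds (1.92%), robust eBayes (2.15%) or the replicate block (1.75%). Deviations of arrays with the same replicate number correlated at -0.10 to 0.34. The correlation was over 0.1 in 3 of 6 pairs for replicate 2, in 1 of 6 each for replicates 3 and 4, and in 0 of 6 for replicate 1. No label links these arrays, and the main fit did not take the numbers as pairs. Whether arrays of the same number share an effect was not tested. The replicate block also ended the calls of Dbp at 36 h (adjusted p = 0.0525), of Per2 probe mMA035000 at 2 h (0.0598) and 36 h (0.0624), of Ppargc1a at 36 h (0.0588) and of the differences of Noct (0.0508) and Fkbp5 (0.0794), and gave 1986 genes instead of 2300 at 36 h. Leaving out 1 array gave 4 genes at 2 h in each case (wider list 2 to 4), 2 to 4 at 36 h (wider list 3 to 8), 1 to 3 for the difference, 0 to 1 in vehicle and 0 to 3 in dex over time. Over all genes these fits called 2.42% to 3.98% at 2 h, 6.56% to 15.7% at 36 h and 2.32% to 4.64% for the difference. They called 0.611% to 2.7% in vehicle and 0.85% to 4.19% in dex over time. Signal over background is unknown here, and 4 arrays per group limit the precision.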
